A study of Mus musculus with 6 samples.

Results

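Nts, Penk and Moxd1 are 3 genes, of which Nts and Penk encode neuropeptide precursors. Each was read by 1 single-gene probe set among 18193 genes measured on 6 mouse whole-genome expression arrays. Nts encodes the precursor of neurotensin and neuromedin N. Penk encodes preproenkephalin, the precursor of the opioid enkephalins. Moxd1 encodes a monooxygenase of the endoplasmic reticulum that is related in sequence to dopamine beta-hydroxylase. The genes were picked by name, with their values on these arrays already known, so their differences between genotypes are given as a description and no test is made on them.

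The samples were SAP-deficient OT-II CD4 T cells (3 arrays) and WT OT-II CD4 T cells (3 arrays). SAP, the product of Sh2d1a, is an adaptor that links SLAM-family receptors to signalling in lymphocytes. Both genotypes carried the OT-II transgene, a T cell receptor for an ovalbumin peptide. Naive cells from spleen and lymph nodes were sorted and grown for 3.5 days with the peptide on splenocytes from which T cells had been removed and whose division was stopped with mitomycin C. The medium held IL-6 at 100 ng/ml and IL-21 at 50 ng/ml. It also held blocking antibodies to IL-4 at 10 µg/ml, to TGF-β at 20 µg/ml, and to IL-12 and IFN-γ, conditions meant to yield cells like follicular helper T cells. The labels give neither the age of the mice nor the nature of the Sh2d1a allele, and do not say whether arrays came from separate mice or cultures. P-values below therefore measure only the spread between these arrays, which may be partly technical.

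Neuropeptides are cut from larger precursors in the secretory pathway by proprotein convertases and trimmed by carboxypeptidases, and some are then amidated by a copper-dependent enzyme. Neurotensin acts on the receptors encoded by Ntsr1 and Ntsr2 and also binds sortilin, and enkephalins act mainly on the delta and mu opioid receptors. Activated mouse CD4 T cells are known to make preproenkephalin mRNA. Dopamine beta-hydroxylase, the relative of MOXD1, is a copper enzyme that turns dopamine into noradrenaline.

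The arrays resembled each other across genotypes. The deviations of each SAP-deficient array from its genotype mean correlated with those of 1 WT array at 0.49 to 0.73, over probe sets not used to match them and without the 3 genes, and these matched arrays had equal replicate numbers. They are called pairs 1 to 3 here. The labels state no such pairing. Xist, the X-inactivation RNA of female cells, read 12.50 (log2) in both arrays of pair 1, at 8.19 in the SAP-deficient and 8.21 in the WT array of pair 2, and at 6.26 and 5.81 in those of pair 3. Eif2s3y, a gene of the Y chromosome, read 2.91 in the SAP-deficient and 3.54 in the WT array of pair 1. It read 9.98 and 9.96 in those of pair 2, and 9.76 and 9.8 in those of pair 3. The pairs thus differed in genes that mark sex, and the part of sex in the levels of the 3 genes was not tested. The target gene followed the labels, with Sh2d1a at 5.47, 4.10 and 4.92 in SAP-deficient replicates 1 to 3, against 9.50, 8.52 and 9.39 in WT replicates 1 to 3. Limma, fitted on genotype alone, called 0 of 18193 genes at an adjusted p under 0.05 (0%), while 239 (1.31%) had an unadjusted p under 0.05. Sh2d1a itself, 19.8-fold lower in SAP-deficient cells, had an adjusted p of 0.0501 in this limma fit, so a count of 0 calls there comes from a fit that did not call the target gene. With the pairs as a block, 1 gene (0.0055%), Sh2d1a, was called (adjusted p = 1.99e-07, limma), and 1110 (6.1%) had an unadjusted p under 0.05.

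Nts was higher in the SAP-deficient array of every pair. Its level (log2 of the array signal after RMA, probe set 1422860_at, Entrez Gene 67405, chromosome 10) was 9.84, 9.45 and 10.66 in SAP-deficient replicates 1 to 3, against 9.36, 9.02 and 10.04 in WT replicates 1 to 3. The SAP-deficient array of pair 3 was the highest of the 6 and the WT array of pair 2 the lowest, and the ranges of the genotypes overlapped. The mean was 9.98 ± 0.62 in SAP-deficient cells and 9.47 ± 0.52 in WT cells (SD, n = 3 arrays each). The mean change, SAP-deficient minus WT, was 0.51 ± 0.34 on the log2 scale (SE of the genotype-only fit), a 1.42-fold difference, so it was smaller than the SD within either genotype. Within pairs 1 to 3 the difference was 0.48, 0.43 and 0.62. In bulk RNA, more cells that express a gene and more of its RNA per cell cannot be told apart.

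Moxd1 showed the widest gap between genotypes of the 3 genes. Its level (probe set 1422643_at, Entrez Gene 59012, chromosome 10) was 9.52, 8.20 and 8.87 in SAP-deficient replicates 1 to 3, against 9.0, 7.37 and 8.14 in WT replicates 1 to 3. Both arrays of pair 1 were high and both of pair 2 low, so the genotypes overlapped although each SAP-deficient array exceeded its WT partner. The mean was 8.86 ± 0.66 in SAP-deficient cells and 8.17 ± 0.81 in WT cells (SD, n = 3 arrays each), a mean change of 0.69 ± 0.44 (SE) or 1.62-fold. Within pairs 1 to 3 the difference was 0.52, 0.83 and 0.73.

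Penk was bright on every array and differed little. Its level (probe set 1427038_at, Entrez Gene 18619, chromosome 4) was 11.83, 12.03 and 11.82 in SAP-deficient replicates 1 to 3, against 11.78, 11.93 and 11.55 in WT replicates 1 to 3. The 6 arrays spanned 0.48 log2 units, less than the 1.64 of Nts and the 2.15 of Moxd1. The mean was 11.89 ± 0.12 in SAP-deficient cells and 11.75 ± 0.19 in WT cells (SD, n = 3 arrays each), a mean change of 0.14 ± 0.11 (SE) or 1.10-fold. Within pairs 1 to 3 the difference was 0.05, 0.09 and 0.27, so the mean rested largely on pair 3, where WT was lowest. Without that pair the change was 0.07. Array signals of different probe sets do not rank amounts of mRNA, but the probe set means of all 3 genes lay above the median probe set (5.75), and 88.5%, 79% and 97.8% of probe sets were dimmer than those of Nts, Moxd1 and Penk.

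**Figure D1:**
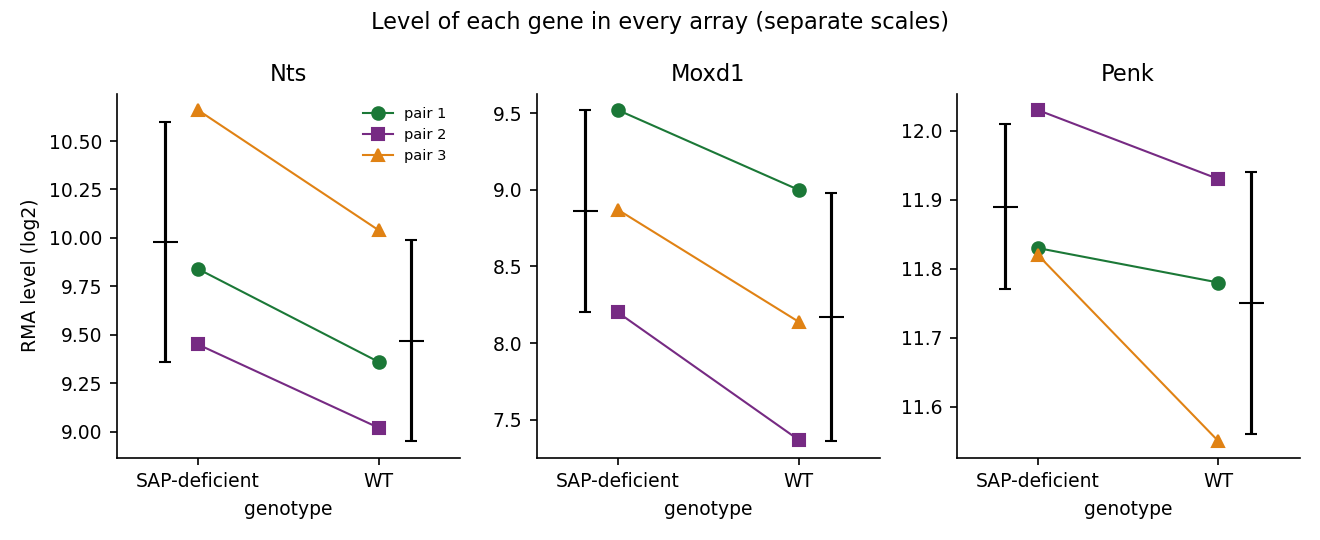
RMA level (log2, vertical axes with separate scales) of Nts, Moxd1 and Penk in the 3 SAP-deficient arrays (left) and the 3 WT arrays (right) of each panel. Coloured lines join the arrays of a pair and black bars are the mean ± SD of a genotype; every line is higher at its SAP-deficient end, while the genotypes overlap in all 3 panels.

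All 3 genes were thus higher in the SAP-deficient array of all 3 pairs, which was also so for 2847 of 18193 genes (15.6%). In none of the 3 did every SAP-deficient array lie above every WT array, a pattern that 2.38% of all genes showed. By mean change, Moxd1 ranked 4th, Nts 17th and Penk 1724th of 18193 genes, and 0.022%, 0.0934% and 9.48% of all genes changed upward by at least as much. These ranks come from the contrast the genes were chosen with and are a description.

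**Figure D2:**
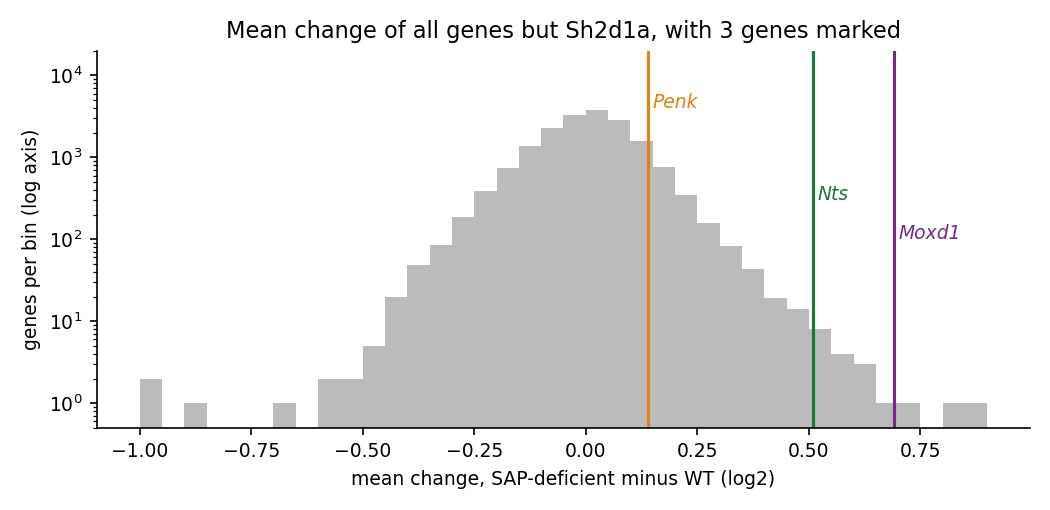
Number of genes (vertical, log axis) by mean change, SAP-deficient minus WT (log2, horizontal), for all genes but Sh2d1a, in bins of 0.05. Coloured lines mark Penk at 0.14, within the bulk of genes, and Nts at 0.51 and Moxd1 at 0.69, in the sparse upper tail.

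Pairs held more of the variation of these genes than genotype did. For Nts, 76.3% of the variance over the 6 arrays lay between pairs, 23.1% between genotypes and 0.583% in the remainder. For Moxd1 these shares were 74.4%, 24.8% and 0.86%, and for Penk 66.9%, 22.3% and 10.8%. Over all genes the median shares were 66.9% between pairs, 6.36% between genotypes and 16.8% in the remainder. The 3 genes followed different orders across pairs. Pair means ran 9.60, 9.24 and 10.35 for Nts in pairs 1 to 3, highest in pair 3. They ran 9.26, 7.79 and 8.50 for Moxd1, highest in pair 1, and 11.80, 11.98 and 11.69 for Penk, highest in pair 2. Over the 6 arrays, which are not independent points because of the pairs, Nts and Moxd1 correlated at r = 0.47, Nts and Penk at -0.43, and Moxd1 and Penk at -0.16.

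Because pairs differ so much, leaving out 1 array unbalances them. The changes always stayed above 0, but some left-out arrays moved them by more than 1.5 times, and those are given here. Other arrays moved them less, with Nts at 0.454 without WT replicate 1 and Moxd1 at 0.678 without WT replicate 3. The Nts change was 0.28 without WT replicate 2, 0.79 without WT replicate 3, 0.775 if SAP-deficient replicate 2 was left out and 0.17 without SAP-deficient replicate 3. The Moxd1 change was 1.11 without WT replicate 1, 0.295 without WT replicate 2 and 0.37 without SAP-deficient replicate 1. The Penk change was 0.23 without WT replicate 2, 0.037 without WT replicate 3 and 0.07 without SAP-deficient replicate 2, and it was 0.08 with array weights.

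Il4 and Il13 encode type 2 cytokines, and their levels give a context for the 3 genes. Il13 was at 8.58, 8.16 and 9.88 in SAP-deficient replicates 1 to 3, against 8.25, 7.66 and 9.05 in WT replicates 1 to 3. Il4 was at 11.09, 9.76 and 11.73 in SAP-deficient replicates 1 to 3, against 10.57, 9.53 and 11.29 in WT replicates 1 to 3. Both cytokine genes were highest in pair 3 and lowest in pair 2, the order of Nts. The difference within pairs 1 to 3 was 0.34, 0.49 and 0.82 for Il13 and 0.52, 0.23 and 0.44 for Il4. Neither cytokine gene passed the threshold in the genotype-only limma fit, with changes of 0.55 ± 0.47 for Il13 and 0.40 ± 0.55 for Il4 (SE) and an adjusted p of 1.00 for both. With the pairs as a block, which the labels do not state, the unadjusted p (limma) was 0.000276 for Il13 and 0.000161 for Il4. Their adjusted p in that limma fit was 0.272 and 0.195, so neither was called there.

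**Figure D3:**
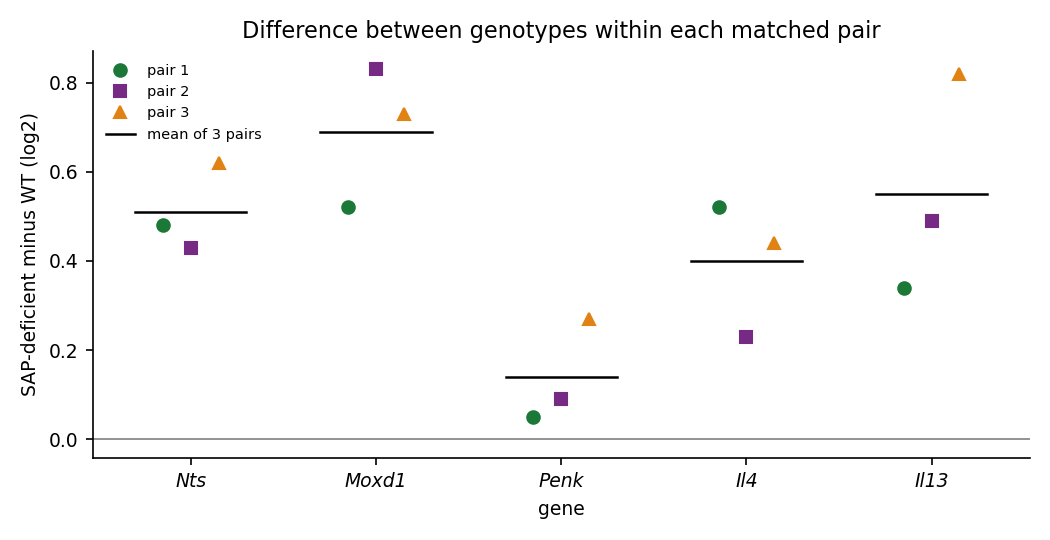
Difference SAP-deficient minus WT (log2, vertical axis) within pairs 1 to 3 (symbols) for Nts, Moxd1, Penk, Il4 and Il13, with the mean of the 3 pairs as a bar. All 15 points lie above 0, and Penk has the lowest mean, 0.14.

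Over the 6 arrays Nts followed both cytokine genes. Its Pearson r was 0.99 with Il13 and 0.92 with Il4, and Spearman's rho was 0.94 with each. Without the 2 arrays farthest from the median of the cytokine gene, r was 0.95 with Il13 and 0.99 with Il4. Moxd1 correlated at r = 0.44 with Il13 and 0.63 with Il4 (rho 0.37 with each), and without the 2 farthest arrays r turned to -0.18 and -0.27, so these values rested on those arrays. Penk went the other way, with r = -0.48 with Il13 and -0.67 with Il4 (rho -0.66 with each). Without the 2 farthest arrays its r was -0.87 with Il13 and -0.04 with Il4. These 6 correlations are descriptions of 6 arrays that share culture conditions and fall into pairs, and no p-value is given for them.

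**Figure D4:**
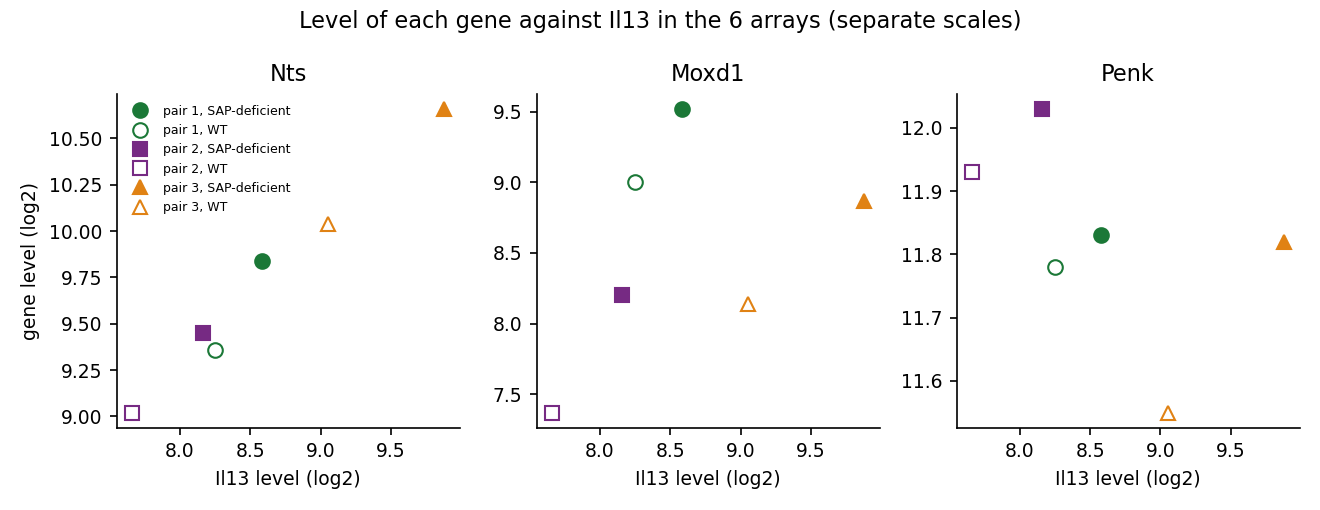
Level of Nts, Moxd1 and Penk (log2, vertical axes with separate scales) against the level of Il13 (log2, horizontal axis) in each of the 6 arrays; filled symbols are SAP-deficient and open symbols WT, with 1 symbol shape for each pair. The Nts points lie near a line (r = 0.99), while those of Moxd1 (0.44) and Penk (-0.48) scatter.

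Among genes that spanned at least 1 log2 unit over the arrays, the 5 most like each of the 3 genes were taken by Pearson r over the 6 arrays. For Nts, Il13 itself came first of 1040 genes (r = 0.991). It was followed by Id1 (0.975), an inhibitor of helix-loop-helix transcription factors, the chemokine gene Ccl1 (0.970), Enpep (0.961), which encodes the peptide-cleaving aminopeptidase A, and Pdzk1ip1 (0.959). Their changes were 0.55, 0.38, 0.47, 0.51 and 0.19, in the same order. The genes most like Moxd1 were Myl10 (0.963), a myosin light chain gene, Ifitm6 (0.954), the β-arrestin gene Arrb1 (0.952), the MYC antagonist gene Mxd1 (0.952) and Plcxd1 (0.926). For Penk they were the secreted protease gene Adamts10 (0.984), the coatomer gene Copg2 (0.982), the Rac activator gene Prex1 (0.975), the potassium channel gene Kcnq5 (0.971) and Focad (0.966). An r over 0.9 was reached by 21 genes (2.02%) for Nts, 9 (0.865%) for Moxd1 and, of 1041 genes, 79 (7.59%) for Penk. No gene was on more than 1 of these lists of 5.

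Nts and Moxd1 lie on the same chromosome and matched entries in the RefSeq promoter table (GRCm38.p6). Penk had no entry there, so its promoter was not examined. The 250 bases before the starts of Nts and Moxd1 are shown, 5′ to 3′ on the strand of the gene, because these 2 genes differ in what lies there. In rat cells the proximal Nts promoter is known to respond through AP-1 and CRE-like elements, which bind FOS and JUN and CREB and ATF factors. In the mouse Nts sequence (chr10:102490419-102490668, minus strand), capitals mark TGANTCA (the AP-1 word), TGACNTCA (a CRE-like word) and TATATA, which occurs there in a pair of overlapping copies. In the Moxd1 sequence (chr10:24223267-24223516, plus strand), capitals mark GGGCGG, the GC box bound by SP factors.
Nts: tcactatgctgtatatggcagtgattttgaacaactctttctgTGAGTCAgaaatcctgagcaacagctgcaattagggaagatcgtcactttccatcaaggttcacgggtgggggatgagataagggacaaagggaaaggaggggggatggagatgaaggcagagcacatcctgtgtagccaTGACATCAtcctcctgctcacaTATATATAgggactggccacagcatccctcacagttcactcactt
Moxd1: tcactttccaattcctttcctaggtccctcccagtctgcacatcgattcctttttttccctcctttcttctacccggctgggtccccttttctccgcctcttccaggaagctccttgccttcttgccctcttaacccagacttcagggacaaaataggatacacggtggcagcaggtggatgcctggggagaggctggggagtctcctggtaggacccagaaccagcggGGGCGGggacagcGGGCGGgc

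The Nts sequence held TGAGTCA beginning 207 bases before the gene start, TGACATCA at 67 bases and TATATA at 45 and 43 bases. Words were sought on both strands of 32851 promoter sequences of the same length. TGANTCA was in 6.75% of them, TGACNTCA in 7.49%, both together in 0.578% and TATATA in 5.25%. The full CRE, TGACGTCA, which is also a TGACNTCA word, was in 1.55%, and neither it nor TATAAA (12.4%) was found in the Nts or Moxd1 sequence. The Moxd1 sequence held GGGCGG beginning 21 and 8 bases before the gene start, a word in 32.7% of promoters, and GGAAAA, the NFAT core, on the opposite strand at 197 bases (20.4% of promoters). Its GC content was 58.4% and that of the Nts sequence 48%, against a median of 52.4%. Such matches describe these letters only.

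AP-1, CREB and NFAT genes, whose products bind the AP-1, CRE-like and NFAT words, were bright on the arrays. None on the list used here passed the threshold in the genotype-only fit, which called 0 of 18193 genes (0%). The part of these factors in the levels of Nts, Moxd1 and Penk was not tested. The list also holds NF-κB genes and the glucocorticoid receptor gene Nr3c1, which bind other words, and no SP factor. All its 19 measured genes had probe set means above the median probe set. Of these, 7 were higher in SAP-deficient cells (mean change above 0, as for 53.3% of all genes) and 12 lower, with a median change of -0.03 against 0.008 over all genes. Limma called 0 of them, and 0 had an unadjusted p under 0.05. In the fit blocked on pairs 0 were called and 3 had an unadjusted p under 0.05 (Batf and Nfatc2, higher, and Atf4, lower). Of all genes, 6.1% had such a p in that fit. The 4 brightest were Atf4, at -0.09 ± 0.07 (change ± SE), the NF-κB subunit gene Rela at -0.01 ± 0.18, and the AP-1 genes Jund at -0.07 ± 0.08 and Junb at -0.02 ± 0.13.

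Genes beside Nts, Moxd1 and Penk on the chromosome were mostly dim. In RefSeq order, the nearest measured genes to Nts were 1700017N19Rik, Mgat4c, Rassf9 and Alx1, with probe set means of 3.04 to 4.08 and changes of -0.14 to 0.14. Those beside Moxd1 were Taar1, Stx7, Gm15270 and Ccn2, with changes of -0.01 to 0.11. Of these Stx7, a syntaxin gene of endosomes, was bright (mean 9.97) and changed by 0.09 ± 0.19 (SE). Those beside Penk were Sdr16c5, Sdr16c6, Bpnt2 and 4930423M02Rik, with changes of -0.14 to 0.04, and among them Bpnt2, a nucleotide phosphatase gene of the Golgi, was bright (mean 10.65). All 12 had an adjusted p of 1.00 in the genotype-only limma fit. That fit called 0 of 18193 genes (0%), so this says nothing particular about these neighbours.

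Other neuropeptide precursor genes were mostly dim. Of 38 measured, 13 had a probe set mean above the median probe set. In SAP-deficient cells 18 were higher (53.3% of all genes were) and 20 lower, and the median change was near 0 (-0.003). The brightest were Edn1, encoding endothelin-1, with a change of 0.11 ± 0.48 (SE), the oxytocin gene Oxt at -0.02 ± 0.14, Pomc, the precursor gene of corticotropin and β-endorphin, at 0.11 ± 0.16, and the neuromedin B gene Nmb at 0.04 ± 0.13. Limma called 0 of the 38, and 0 had an unadjusted p under 0.05. In the fit blocked on pairs 0 were called and 1, Avp, was lower at an unadjusted p under 0.05 (6.1% of all genes had such a p).

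The processing and granule list held 20 measured genes, 12 higher (53.3% of all genes were) and 8 lower, with a median change of 0.08. Furin, a convertase of the general secretory pathway, was at 11.61, 10.85 and 11.90 in SAP-deficient replicates 1 to 3, against 11.61, 10.74 and 11.68 in WT replicates 1 to 3. Both genotypes were lowest in pair 2, and the change was 0.11 ± 0.31 (SE). The convertase gene Pcsk1, which cuts prohormones in endocrine cells, had a mean of 5.81, close to the median probe set, and Cpe, the carboxypeptidase of neuroendocrine granules, one of 4.84. Of the carboxypeptidase genes Cpm and Cpd, Cpm changed by 0.37 ± 0.27 (0.27, 0.16 and 0.69 within pairs 1 to 3) and Cpd by 0.12 ± 0.18, and the cathepsin gene Ctsl changed by 0.10 ± 0.27. Limma called 0 of the 20, and 0 had an unadjusted p under 0.05. In the fit blocked on pairs 0 were called and 1, Cpm, had an unadjusted p under 0.05 (6.1% of all genes did).

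Of the receptors for neurotensin and opioid peptides, only Ogfr and Sort1 had probe set means above the median probe set, of the 8 genes measured. Ogfr, the opioid growth factor receptor gene that binds Met-enkephalin, was at 10.02, 10.07 and 10.23 in SAP-deficient replicates 1 to 3, against 10.16, 10.06 and 10.46 in WT replicates 1 to 3, a change of -0.12 ± 0.13 (SE). Sort1, encoding sortilin, had a change of -0.19 ± 0.16. The neurotensin receptor genes Ntsr1 and Ntsr2 had means of 4.52 and 4.53, the delta and mu opioid receptor genes Oprd1 and Oprm1 means of 4.38 and 4.42, all below the median probe set. Oprk1 changed by -0.09 ± 0.11 and Oprl1 by 0.11 ± 0.11. Of the 8 genes 2 were higher (53.3% of all genes were) and 6 lower (median change -0.07). Limma called 0, and 1, Oprd1, was higher at an unadjusted p under 0.05 (1.31% of all genes had such a p). With the pairs as a block both counts were 0 (0.0055% and 6.1% of all genes).

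Of 14 measured peptide-degrading enzymes 9 were higher (53.3% of all genes were) and 5 lower, with a median change of 0.06. The brightest were the endothelin-converting enzyme genes Ece1 and Ece2, with changes of 0.05 ± 0.12 and 0.08 ± 0.13 (SE), prolyl endopeptidase Prep at -0.08 ± 0.12 and insulysin Ide at 0.23 ± 0.18. Mme and Anpep, encoding neprilysin and aminopeptidase N, which break down enkephalins, had means of 3.58 and 4.58, below the median probe set. Enpep, one of the genes most like Nts, was at 7.58, 6.82 and 8.34 in SAP-deficient replicates 1 to 3, against 7.13, 6.18 and 7.89 in WT replicates 1 to 3. It was highest in pair 3 and lowest in pair 2, and its change was 0.51 ± 0.48. Limma called 0 of the 14, and 0 had an unadjusted p under 0.05. In the fit blocked on pairs 0 were called and 2, Enpep and Ide, had an unadjusted p under 0.05 (6.1% of all genes did).

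Receptors for other neuropeptides included 29 measured genes, 9 higher (53.3% of all genes were) and 20 lower, with a median change of -0.05. Calcrl, the calcitonin receptor-like gene, changed by 0.01 ± 0.08 (SE), its partner genes Ramp3 and Ramp1 by -0.11 ± 0.30 and -0.07 ± 0.24, and the somatostatin receptor gene Sstr3 by 0.05 ± 0.13. Limma called 0 (0% of all genes), and 0 had an unadjusted p under 0.05 (1.31% of all genes). With the pairs as a block both counts were also 0 (0.0055% and 6.1% of all genes).

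Of the copper monooxygenases related to Moxd1, only Dbh lay above the median probe set. Dbh, dopamine beta-hydroxylase, had a mean of 7.30 and a change of -0.14 ± 0.13 (SE), Moxd2 one of 4.26 and 0.27 ± 0.10, and Pam, the peptide-amidating copper enzyme, one of 5.27 and 0.13 ± 0.24. Th, the enzyme that makes the dopamine precursor, had a mean of 4.68. The brightest genes of this list of 12 make or recycle the cofactor tetrahydrobiopterin: Gch1 changed by 0.05 ± 0.23, Qdpr by -0.02 ± 0.07, Spr by -0.01 ± 0.13 and Pts by 0.13 ± 0.15. In the list 7 genes were higher (53.3% of all genes were) and 5 lower (median 0.03). Limma called 0, and 1, Moxd2, was higher at an unadjusted p under 0.05, with and without the pairs as a block. Of all genes, 6.1% had such a p with the block and 1.31% without it. Copper transport genes were all above the median probe set. Of these 10, 8 were higher (53.3% of all genes were) and 2 lower (median 0.05). Cox17 changed by 0.02 ± 0.09, Atox1 by 0.12 ± 0.11, Slc31a1 by 0.14 ± 0.18 and Sco2 by -0.07 ± 0.11. Limma called 0 of the 10, and 0 had an unadjusted p under 0.05. In the fit blocked on pairs 0 were called and 1, Slc31a1, had an unadjusted p under 0.05 (6.1% of all genes did).

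The list of type 2 cytokines and Th2 genes had 12 of 15 measured genes higher in SAP-deficient cells (53.3% of all genes were) and a median change of 0.15, against 0.008 over all genes. The brightest were Il3, at -0.01 ± 0.09 (change ± SE), Csf2 at 0.10 ± 0.21, Ccl1 at 0.47 ± 0.41 and Il24 at 0.33 ± 0.41. Limma called 0 of the 15 and 0 had an unadjusted p under 0.05. In the fit blocked on pairs 0 were called and 6 had an unadjusted p under 0.05 (6.1% of all genes did), all higher: Il4, Il13, Il24, Il31, Gata3 and Ccl1. This list was chosen with results of these arrays known, so its counts are a description. Without SAP-deficient replicate 3 the median turned to -0.037, and without WT replicate 3 or SAP-deficient replicate 2 it was 0.33 and 0.31.

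**Figure D5:**
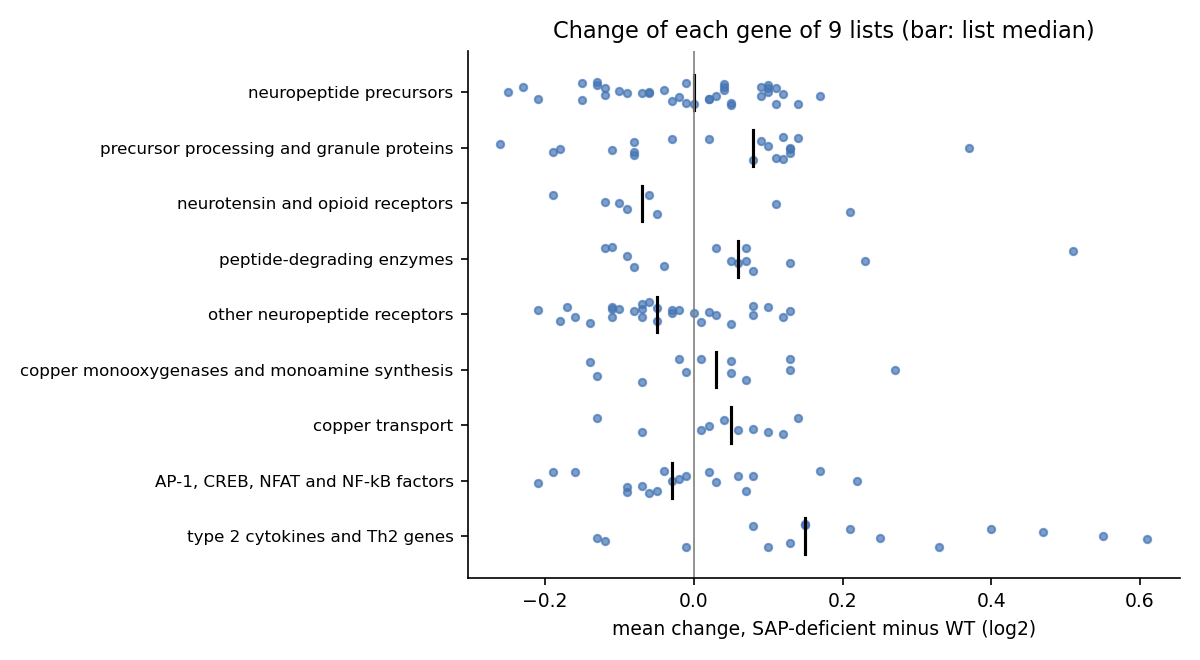
Mean change, SAP-deficient minus WT (log2, horizontal axis), of each measured gene (points) of 9 gene lists (rows), with the list median as a black bar. Medians run from -0.07 for neurotensin and opioid receptors to 0.15 for type 2 cytokines and Th2 genes.

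Markers of T cells and of other cells in the culture were read for context. T cell markers were bright, with 9 of 9 measured genes above the median probe set, and their summed linear signal was 24970 to 31630 in SAP-deficient arrays and 25650 to 31710 in WT arrays. MHC class II genes, 7 of 9 above the median probe set, summed to 2653 to 3652 in SAP-deficient arrays and 2978 to 3713 in WT arrays. Of the 9 genes 8 had a mean change below 0, while 53.3% of all genes had one above 0. The mean difference of the 9 within pairs 1 to 3 was -0.05, -0.06 and -0.47. Nts and Penk differed most in pair 3 and Moxd1 in pair 2 (0.83). B cell markers, 4 of 9 above the median probe set, summed to 421.4 to 517.2 in SAP-deficient arrays and 481.7 to 641.2 in WT arrays, with Ms4a1 and Pax5 below that median at means of 5.33 and 5.03. All 9 had a mean change below 0, and the mean difference within pairs 1 to 3 was -0.16, -0.07 and -0.38. Of 10 fibroblast and stroma markers 3 were above it (Dcn, Lum and Pdpn), while Col1a1 and Col3a1 had means of 4.54 and 3.07, and the list summed to 3227 to 3957 in SAP-deficient arrays and 3842 to 5127 in WT arrays. Lum alone, with a mean of 11.73, made up 85.6% to 88.2% of this sum. Of the 10 genes 8 had a mean change below 0, and the mean difference within pairs 1 to 3 was -0.21, -0.07 and -0.11. Dcn changed by -0.47 ± 0.20 (SE), with an unadjusted p of 0.0465 and an adjusted p of 1.00 (limma). Pdgfra, of the same list, went the other way and was higher at an unadjusted p under 0.05 (limma). Of all genes, 1.31% had such a p. Of 9 neuron and glia markers 4 were above it (Rbfox3, Gfap, Mbp and Sox10). The neuronal genes Snap25, Syt1 and Stmn2 lay below it at 4.30, 4.77 and 4.86, and the list summed to 1897 to 2465 in SAP-deficient arrays and 1629 to 2311 in WT arrays. Mbp alone, with a mean of 10.66, made up 76.5% to 84.3% of this sum. Macrophage and dendritic cell markers, 7 of 11 above it, summed to 734.4 to 954.4 in SAP-deficient arrays and 790 to 929.8 in WT arrays. Endothelial markers, 2 of 7 above it, summed to 226.5 to 245.9 in SAP-deficient arrays and 217.4 to 236.6 in WT arrays. Basophil and mast cell markers, 1 of 7 above it, summed to 204.1 to 217.3 in SAP-deficient arrays and 209.1 to 225.2 in WT arrays. The part of such cells in the levels of Nts, Moxd1 and Penk was not tested.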

How the data were processed

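RNA was hybridised to 6 Affymetrix arrays covering the mouse genome, with 500 ng of RNA labelled for each, per the labels' protocols. The deposited values are log2 levels, made by the authors with Affymetrix Expression Console and RMA, per the submitters' processing notes. Versions and annotation were not given in the sources used here. The method equalises the arrays' distributions, so it hides changes in total RNA per cell, and it understates differences of dim probe sets. Array medians ran from 5.73 to 5.76. The number of arrays limits the precision.

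From 45101 probe sets, 64 controls were left out and 45037 were kept. The platform annotation gave 1 gene for 34945, several for 932 and none for 9160, and a RefSeq table matched 34741 of those with 1 gene. For each of 18193 genes the brightest probe set naming that gene alone was used. Limma 3.58.1 (R 4.3.3) was fitted to all probe sets on genotype alone, with eBayes and an intensity trend, and p-values were adjusted by Benjamini-Hochberg over genes, with calls at 0.05. The fit was tested on simulated data with independent noise and no pairs, unlike these arrays, so that test does not cover the effect of pairs. Pairs were matched by correlation over the odd-numbered probe sets, and the even-numbered ones served as a check. Nts, Moxd1 and Penk, the gene lists and the use of pairs were chosen with earlier results of these data known. Named genes are the 3 genes, Sh2d1a, Il4, Il13, Xist, Eif2s3y, the 4 brightest of each list, the 5 most correlated with each of the 3, and the 2 nearest measured genes on each side. Other list genes named (the receptors, Pcsk1, Cpe, Mme, Anpep, Enpep, Dbh, Moxd2, Pam, Th, markers and genes at an unadjusted p under 0.05) were chosen after their values were seen. Promoter sequences are from RefSeq. Alternatives were other variance models, filters, normalizations, weights, probe set rules, left-out arrays and the pairs as a block.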

Additional observations from a re-analysis of the deposited data

How the results depend on the processing

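The changes of Nts, Moxd1 and Penk stayed above 0 in all 12 alternatives each, but some of these could not move them. Each of these genes had 1 probe set, so averaging the probe sets of a gene left their levels as they were. Each pair held 1 array of each genotype, so the block with all pairs had to keep the mean difference. The genes were also picked with these values known. The changes moved by less than the pooled SD within genotypes. That SD was larger than each change, so a fall to 0 would also have met this limit. Without single arrays the 3 changes ran from 0.17 to 0.79, from 0.295 to 1.11 and from 0.037 to 0.23. The replicate block with matched pairs left the 3 changes at 0.51, 0.69 and 0.14, and the labels do not state this pairing. A second quantile normalization and median centring moved no difference within a pair by more than that same wide SD. For example, the Moxd1 difference in pair 3 ran from 0.662 to 0.745. The count of called genes was 1 with robust eBayes, 1 with the replicate block of matched pairs and 36 with that block without pair 3, and 0 to 1 without single arrays; the cause was not tested.

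The correlations of Nts with Il4 and Il13 ran from 0.92 to 0.99 and from 0.94 to 0.99. That of Moxd1 with Il4 was 0.37 by Spearman's rho and -0.27 without the 2 farthest arrays, and that with Il13 was -0.18 without them. Those of Penk were -0.04 with Il4 and -0.87 with Il13 without them, where 4 arrays remain.

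List medians moved as follows. After a second quantile normalization, AP-1 and related factors were at -0.064 and other neuropeptide receptors at -0.039, and this receptor list was at -0.03 when all probe sets of each gene were averaged. In the replicate block without pair 3, AP-1 and related factors were at 0.004, copper transport at 0.10, other neuropeptide receptors at -0.031 and processing genes at 0.039. Type 2 genes were at 0.33 among probe sets above the 75th percentile. Without single arrays the medians ran from -0.10 to 0.06 for AP-1 and related factors, 0.009 to 0.10 for copper transport, -0.063 to -0.001 for other neuropeptide receptors, -0.012 to 0.078 for peptide-degrading enzymes, -0.032 to 0.05 for processing genes and -0.037 to 0.33 for type 2 genes. The neuropeptide precursor list has no probe set above the 75th percentile, so that alternative gives no value for it. The number of arrays and dim probe sets limit what can be seen.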
